A study of Mus musculus with 19 samples.

Results

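The 9 genes described here encode parts of the basement membrane beneath the surface epithelium of the eye: the laminin chains *Lama3*, *Lama5* and *Lamb3*, the anchoring collagens *Col17a1* and *Col7a1*, the sheet collagens *Col4a1* and *Col4a2*, and the linkers *Nid1* and *Hspg2*. They were taken by symbol from the 24552 genes of the cornea and conjunctiva tables, and all 9 were found in both. The libraries came from mice labelled C57BL/6 (C57BL/6J in the study's methods, which describe females), and the sample titles carry 6M and 50W. Freely fed mice (ad libitum, AL) gave 5 cornea and 4 conjunctiva libraries, and mice kept on a calorie-restricted ration (CR) gave 5 of each. By the study's methods, the cornea samples were corneal epithelium collected by scraping, the conjunctiva was excised by surgery, CR mice were fed daily just before the night cycle, and several tissues were taken from each mouse. The methods describe 2 cohorts on different chows, the CR chow of the second being richer in vitamins, and the labels do not say which cohort gave these libraries. The series text calls the mice young, whereas the methods describe adults that were 6 to 7 months old when the diets began and stayed on them for 4 months. The labels do not state that each library came from a different mouse, so a p-value measures the spread between these libraries.

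A basement membrane is a thin sheet of matrix that an epithelium sits on. Laminins, trimers of an alpha, a beta and a gamma chain, assemble at the cell surface, and collagen IV forms a second, crosslinked network. Nidogen and perlecan tie both networks together. Basal cells of stratified epithelia hold on through hemidesmosomes, in which the transmembrane collagen XVII and an integrin link the keratin skeleton to laminin-332 outside the cell. Collagen VII forms anchoring fibrils that run into the stroma below. Corneal and conjunctival epithelia are both stratified epithelia of this kind, and the conjunctiva also has a vascular stroma, whose vessels carry basement membranes of their own.

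The labelled tissues were checked against defining markers. *Krt12*, the corneal keratin, had 179846 to 340965 normalized counts in the cornea libraries and 436 to 5139 in the conjunctiva libraries. A normalized count is a read count divided by the size factor of its library. *Muc5ac*, the goblet cell mucin, had 2328 to 6593 normalized counts in the conjunctiva and at most 43.3 in the cornea. Of the 6 corneal markers 5 were higher in the cornea table without overlap, the exception being *Krt14*, a basal cell keratin with 3780 to 11069 in corneal and 9071 to 20609 in conjunctival libraries. Of the 6 conjunctival markers only *Muc5ac* and *Tff1* stood apart in this way. *Krt4*, *Krt13*, *Krt19* and *Muc4* overlapped, and *Krt13*, a keratin of stratified epithelia, ran from 21686 to 48151 in corneal libraries and from 10269 to 40522 in conjunctival ones. Each tissue was scaled in its own table. The endothelial gene *Cdh5* was at 0 in all 5 AL cornea libraries and reached 3.29 under CR, whereas conjunctiva libraries had 42.1 to 137. Other endothelial markers were read in the cornea. *Flt1* had 29.2 to 148 in AL and 33.3 to 154 in CR cornea libraries, and *Kdr* reached 44.8 in AL and 34.0 in CR. Libraries held 10354125 to 14681223 counted reads. The share of genes without a read was 33.6% to 40.1% in conjunctiva and 38.7% to 47.6% in cornea libraries. Of the latter, AL 1, 2, 3 and 5 and CR 1 had 38.7% to 40.7%, against 42.7% to 47.6% in AL 4 and CR 2, 3, 4 and 7. These did not form separate levels, since CR 4, at 42.7%, lay closer to AL 5, at 40.7%, than to AL 4. AL 4, with 45.2%, and CR 1, with 39.9%, therefore each stood with the other diet, and results that rest on them are given without them below. Without both, the diets do not overlap in this share, so a diet change without them cannot be told apart from it.

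Promoter windows of 8 members were found in the RefSeq table of GRCm38.p6, each running from 250 bases before to 50 bases after the annotated start. The *Lama3* window was not found. The windows of *Col4a1* and *Col4a2* are shown because both genes start within the same stretch of chromosome 8 and run apart from it, while their read counts differed in the cornea. The *Col4a1* window lies at chr8:11312777-11313076 on the minus strand and the *Col4a2* window at chr8:11312555-11312854 on the plus strand. They share 78 bases (chr8:11312777-11312854), written in capitals, which appear in each window as the reverse complement of the other.
Col4a1: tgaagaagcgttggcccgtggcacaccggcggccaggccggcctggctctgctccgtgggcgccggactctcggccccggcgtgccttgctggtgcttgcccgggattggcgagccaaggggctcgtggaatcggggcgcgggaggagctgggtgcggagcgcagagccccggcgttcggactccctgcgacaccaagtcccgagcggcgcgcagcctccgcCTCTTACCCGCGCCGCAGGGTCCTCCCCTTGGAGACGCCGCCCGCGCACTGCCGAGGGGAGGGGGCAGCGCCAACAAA
Col4a2: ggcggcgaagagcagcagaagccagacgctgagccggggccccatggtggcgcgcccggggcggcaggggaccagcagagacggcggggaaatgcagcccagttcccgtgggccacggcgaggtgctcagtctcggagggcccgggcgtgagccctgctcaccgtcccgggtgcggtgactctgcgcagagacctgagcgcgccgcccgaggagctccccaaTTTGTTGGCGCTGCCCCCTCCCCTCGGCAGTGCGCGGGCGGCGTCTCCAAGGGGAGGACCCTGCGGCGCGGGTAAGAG
The window of *Col17a1*, at chr19:47691993-47692292 on the minus strand, is shown because *Col17a1* was the most abundant member in both tissues. Capitals mark the 2 matches to TATAAA.
Col17a1: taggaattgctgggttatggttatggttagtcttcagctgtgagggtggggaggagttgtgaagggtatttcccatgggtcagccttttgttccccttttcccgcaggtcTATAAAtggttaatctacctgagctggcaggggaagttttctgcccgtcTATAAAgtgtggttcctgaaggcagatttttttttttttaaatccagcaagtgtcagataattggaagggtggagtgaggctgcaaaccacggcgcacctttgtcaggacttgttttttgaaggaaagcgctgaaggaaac

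Of the 8 members with a window, only *Col17a1* matched TATAAA, the TATA box, which 13.6% of all 32851 windows hold on either strand. GC boxes (GGGCGG, either strand) were found in 6 members, *Lama5*, *Col7a1*, *Col4a1*, *Col4a2*, *Nid1* and *Hspg2*, against 35.7% of all windows. The windows of *Hspg2* and *Lama5* held 5 and 4 of them. CCAAT was found in 5 members, *Col17a1*, *Col7a1*, *Col4a1*, *Col4a2* and *Nid1*, against 37.4% of all windows. No member window held the AP-1 motif TGANTCA (7.81% of all windows) or the E-box CACGTG (7.15%). A match is a description of the letters only. GC content ran from 46.3% in the *Col17a1* window to 74.0% in that of *Col4a1*.

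Levels were first set side by side in reads per 1000000 counted reads (RPM), with no test, because the authors scaled each tissue in its own table. *Col17a1* was higher in the cornea, at 695 to 1432 RPM, than in the conjunctiva, at 172 to 340. The ranges of the laminin chains and of *Col7a1* met or overlapped between tissues over all libraries. *Lama3* had 63.9 to 108 RPM in corneal against 50.1 to 68.1 in conjunctival libraries, and *Lama5* 38.8 to 70.0 and 30.5 to 57.5. *Col7a1*, the anchoring fibril collagen, had 16.4 to 44.4 and 13.8 to 29.8. *Lamb3*, the beta chain that pairs with *Lama3* in laminin-332, stood the other way round, at 10.3 to 27.5 against 24.3 to 55.6. The sheet and linker genes had far fewer reads in the cornea, and their ranges did not meet. *Col4a1* had 1.02 to 11.0 RPM in corneal and 16.0 to 51.6 in conjunctival libraries, a ratio of medians of 7.11. *Nid1* had 6.35 to 19.7 and 40.5 to 83.3 (ratio 5.63), and *Hspg2*, which encodes perlecan, 2.12 to 8.35 and 22.2 to 70.2 (ratio 7.26). *Col4a2* had at most 1.71 in the cornea, with 0 reads in CR 7 (which allows up to 3 reads), and 3.51 to 25.01 in the conjunctiva (ratio 21.9). In bulk tissue, more cells of a type and more RNA per cell cannot be told apart. The share of all genes whose ranges do not meet between the tissues was not counted. Ranges that did not meet therefore do not set these members apart from other genes.

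**Figure D1:**
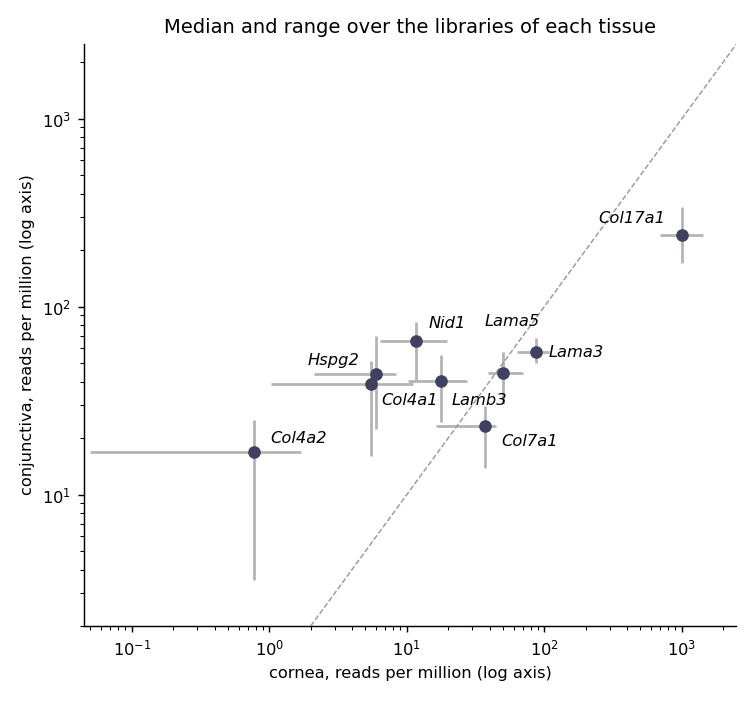
RPM of the 9 genes in the 10 cornea libraries (x axis, log) and the 9 conjunctiva libraries (y axis, log). Points are medians, grey lines run from the lowest to the highest library, the line of Col4a2 stops at the edge of the plot because a cornea library had 0 reads, and the dashed line marks equal values. Col17a1 lies below the line, and Col4a1, Col4a2, Nid1 and Hspg2 lie above it with ranges that did not meet between tissues.

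Per kilobase of exon (union of GENCODE M21 exons, 6.01 kb for *Col17a1* to 14.3 kb for *Hspg2*), *Col17a1* stood first in each of the 4 groups, with 116 to 190 RPM per kilobase in AL cornea and 30.4 to 39.9 in AL conjunctiva, and it did not overlap with the gene below it. In AL cornea the order of medians was *Col17a1*, *Lama3* (7.43 RPM per kilobase), *Lama5* (4.02), *Col7a1* (3.73), *Lamb3* (2.10), *Nid1* (1.40), *Col4a1* (1.21), *Hspg2* (0.431) and *Col4a2* (0.134). Of these neighbours, *Lama5* and *Col7a1* overlapped, as did *Lamb3* and *Nid1*, *Nid1* and *Col4a1*, and *Col4a1* and *Hspg2*. In AL conjunctiva *Nid1* (9.92) came second and *Lamb3* (6.32), *Col4a1* (6.09) and *Lama3* (5.37) followed, and every neighbouring pair after *Col17a1* overlapped. The labels name a kit that reads along the whole transcript. The methods describe priming with oligo(dT), under which reads do not grow with length, so this order depends on which was used.

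The comparison of the diets asked whether calorie restriction was accompanied by other levels of these genes. No member was called changed in either tissue, a call being an adjusted p under 0.05 with a fold over 1.5 in limma. The count was 0 of 8 members tested in the cornea, where 1.22% of all 12278 genes tested were called, and 0 of 9 in the conjunctiva, where 0.359% of 13929 were called. *Col4a2* was not tested in the cornea because its mean was under 10 normalized counts. The test of recovered reads with voom also called 0 members in each tissue. The AL and CR libraries overlapped for every member in both tissues. Of all genes tested, 2.08% were higher and 1.89% lower under CR without overlap in the cornea, and 1.92% and 1.95% in the conjunctiva. At an unadjusted p under 0.05, 4 members were higher under CR in the cornea (*Lama5*, *Lamb3*, *Col17a1* and *Nid1*) and 0 were lower, against 8.52% and 9.55% of all genes. In the conjunctiva 0 were higher and 2 were lower (*Col4a1* and *Hspg2*), against 4.53% and 4.87%.

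**Figure D2:**
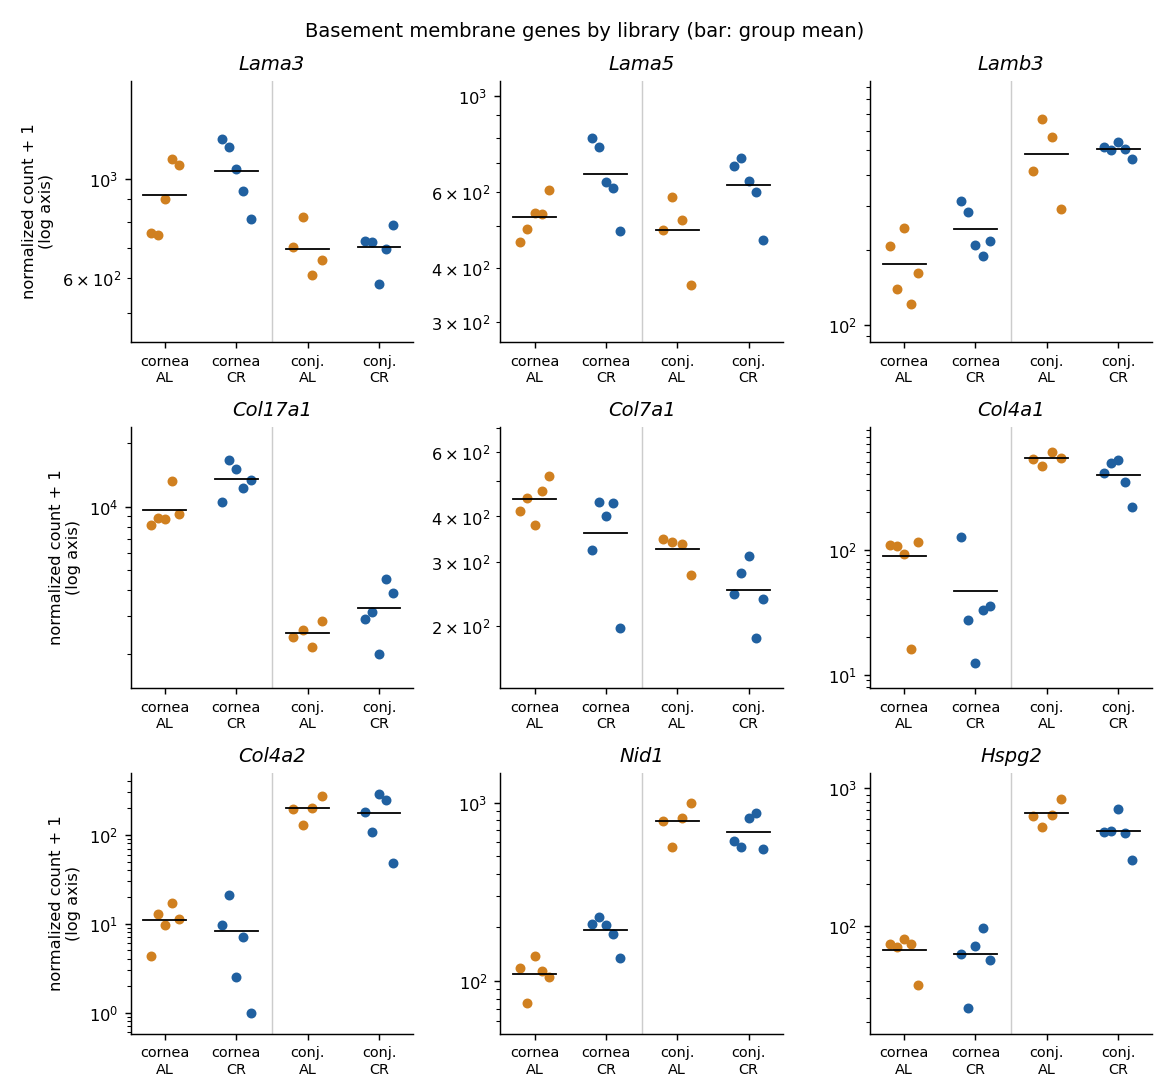
Normalized count plus 1 (y axis, log) of each gene by library in cornea AL and CR (5 each) and conjunctiva AL (4) and CR (5). Each point is a library and each bar a group mean, and the grey line separates the tissues, which were scaled apart. The AL and CR points of a tissue overlap in every panel, with the Nid1 cornea points of CR at 134 to 228 against 74.3 to 138 in AL.

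Among the laminin chains, *Lama3*, the alpha chain of laminin-332, had 756, 747, 903, 1111 and 1072 normalized counts in cornea AL 1 to 5, and 1231, 1179.8, 1055, 938 and 809.9 in CR 1, 2, 3, 4 and 7. Its libraries overlapped across most of their range (log2 change CR minus AL 0.19 ± 0.14, SE, adjusted p = 0.509). In the conjunctiva it had 607 to 820.3 in AL and 578 to 789 in CR, with a log2 change of 0.01 ± 0.15 (adjusted p = 0.983). Its 95% interval there ran from −0.30 to 0.32 on the log2 scale. *Lama3* thus had the smallest fitted change of the 9 genes in the conjunctiva.

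*Lama5* encodes the alpha chain of laminin-511, a laminin of mature epithelia and of vessels. It had 458, 491, 534, 531 and 606 normalized counts in the AL cornea and 798, 759.5, 629.6, 612 and 487 in CR 1, 2, 3, 4 and 7. In 4 of 5 CR libraries it exceeded every AL library, and CR 7 was among the lowest. The log2 change was 0.31 ± 0.14 (adjusted p = 0.257). The conjunctiva showed the same arrangement. *Lama5* had 487, 581, 516 and 363 in AL 1, 3, 4 and 5, and 688, 718, 634, 597 and 463 in CR 1 to 5, so 4 of 5 CR libraries exceeded every AL library. The log2 change was 0.35 ± 0.17 (adjusted p = 0.540), and 0.22 without AL 5.

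*Lamb3* had 206, 138, 242, 119 and 161 normalized counts in the AL cornea and 313, 281, 208, 188 and 215 in CR 1, 2, 3, 4 and 7. The 2 highest values were both CR, and the other CR libraries lay within the AL range (log2 change 0.50 ± 0.21, adjusted p = 0.224). Its 4 conjunctiva AL libraries ran from 289.8 to 669 and the 5 CR libraries, from 459.9 to 537, all lay between them. The change there was 0.13 ± 0.20 (adjusted p = 0.892). The SD was 166 over the AL and 28.2 over the CR libraries.

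*Col17a1* had 8186, 8816, 8706, 13286 and 9231 normalized counts in cornea AL 1 to 5, and 10559.9, 16565, 15068, 12277 and 13348 in CR 1, 2, 3, 4 and 7. Apart from AL 4, every AL library lay below every CR library. The means were 9645 ± 2069 (SD, n = 5) and 13564 ± 2345 (SD, n = 5), with a log2 change of 0.50 ± 0.14 (adjusted p = 0.0785). Without AL 4 the change was 0.62 and was called (adjusted p = 0.00662), and without CR 1 it was 0.58, with an adjusted p of 0.0237 but a fold under 1.5. Conjunctiva AL libraries had 2388, 2594, 2139 and 2864, and CR 1 to 5 had 2905, 3149.6, 1982, 4539 and 3883. The CR spread was the larger, with an SD of 973 against 308. CR 3 was the lowest of all 9 libraries and the other 4 CR libraries exceeded every AL library (log2 change 0.35 ± 0.20, adjusted p = 0.616). The change was 0.22 without CR 4, 0.52 without CR 3 and 0.097 with the share of genes without a read as a covariate.

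*Col7a1* had a lower mean under CR in both tissues. In the cornea it had 379 to 514 normalized counts in AL and 322, 438, 400.0, 434 and 197 in CR 1, 2, 3, 4 and 7 (log2 change −0.36 ± 0.19, adjusted p = 0.333). CR 7, the lowest library, decided much of that value, since the change was −0.16 without it. Conjunctiva AL libraries had 346, 339, 336 and 275 and the CR libraries 244, 279.8, 311, 184 and 237, so 3 of 5 CR libraries lay below every AL library. The log2 change was −0.38 ± 0.18 (adjusted p = 0.538).

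*Col4a1* encodes the more abundant chain of the collagen IV network and *Col4a2* the chain it joins in a trimer. In the cornea, the *Col4a1* libraries formed separate levels, which followed the diet labels except in AL 4 and CR 1. It had 108, 106, 91.7 and 114 normalized counts in AL 1, 2, 3 and 5 and 126 in CR 1, but 15.03 in AL 4 and 26.4, 11.4, 31.7 and 34.4 in CR 2, 3, 4 and 7. The 5 high libraries were the same 5 that had the smaller share of genes without a read. The log2 change was −1.07 ± 0.65 (adjusted p = 0.409). It was −1.61 without AL 4 (adjusted p = 0.0594), −1.53 without CR 1 (adjusted p = 0.119), and 0.25, the other direction, with the share of genes without a read as a covariate (adjusted p = 0.902).

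*Col4a2* did not follow *Col4a1* in the cornea. Reads were few, at 3, 11, 8, 18 and 10 in AL 1 to 5 and 8, 21, 2, 6 and 0 in CR 1, 2, 3, 4 and 7. Per read of *Col4a2* there were 32.7, 8.82, 10.5, 0.944 and 11.1 reads of *Col4a1* in AL 1 to 5, 14.4 in CR 1, and 1.33, 7.50 and 5.17 in CR 2, 3 and 4. The 5 libraries with high *Col4a1* held the 5 highest ratios among those with any *Col4a2* read. In the conjunctiva the ratio ran from 1.42 to 4.56 over all 9 libraries.

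In the conjunctiva, *Col4a1* had 532, 467, 605 and 537 normalized counts in AL 1, 3, 4 and 5, and 411, 487, 516, 345 and 217 in CR 1 to 5. Of the CR libraries, 3 lay below every AL library and none lay above them all. The means were 535 ± 56.3 (SD, n = 4) and 395 ± 119.8 (SD, n = 5), with a log2 change of −0.49 ± 0.22 (adjusted p = 0.495). *Col4a2* had 196, 129, 200.1 and 269.8 in AL and 180.2, 108, 289, 243 and 47.7 in CR, the highest and the lowest values both being CR (log2 change −0.40 ± 0.48, adjusted p = 0.847). Without CR 5, the lowest, the *Col4a2* change was close to 0, at −0.002, and that of *Col4a1* was −0.29.

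*Nid1* encodes nidogen-1, which binds laminin and collagen IV. In the cornea it had 118, 74.3, 138, 113 and 105 normalized counts in AL 1 to 5, and 208, 228, 207, 182 and 134 in CR 1, 2, 3, 4 and 7. In 4 of 5 CR libraries it exceeded every AL library, and CR 7 lay just under AL 3. The means were 109.6 ± 23.1 (SD, n = 5) and 192 ± 36.3 (SD, n = 5). The log2 change was 0.81 ± 0.21, the largest positive change fitted to a member, with an adjusted p of 0.0616. It was called without AL 4 (0.83, adjusted p = 0.0360) and without CR 7 (0.93, adjusted p = 0.0239). In the conjunctiva *Nid1* had 784, 562, 822 and 993 in AL and 607, 565, 824, 878 and 549 in CR, and the log2 change was −0.21 ± 0.19 (adjusted p = 0.788). It was −0.087 without AL 5 and −0.36 without AL 3.

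*Hspg2*, the perlecan gene, had 36.0 to 79.7 normalized counts in the AL cornea and 24.5 to 96.0 in the CR cornea, so the AL range lay inside that of CR (log2 change −0.17 ± 0.35, adjusted p = 0.825). In the conjunctiva it had 623, 526, 639 and 838 in AL and 478, 492, 708, 472 and 301 in CR. In 4 of 5 CR libraries it lay below every AL library, and CR 3 was the exception. The log2 change was −0.45 ± 0.21 (adjusted p = 0.523), and −0.29 without CR 5.

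**Figure D3:**
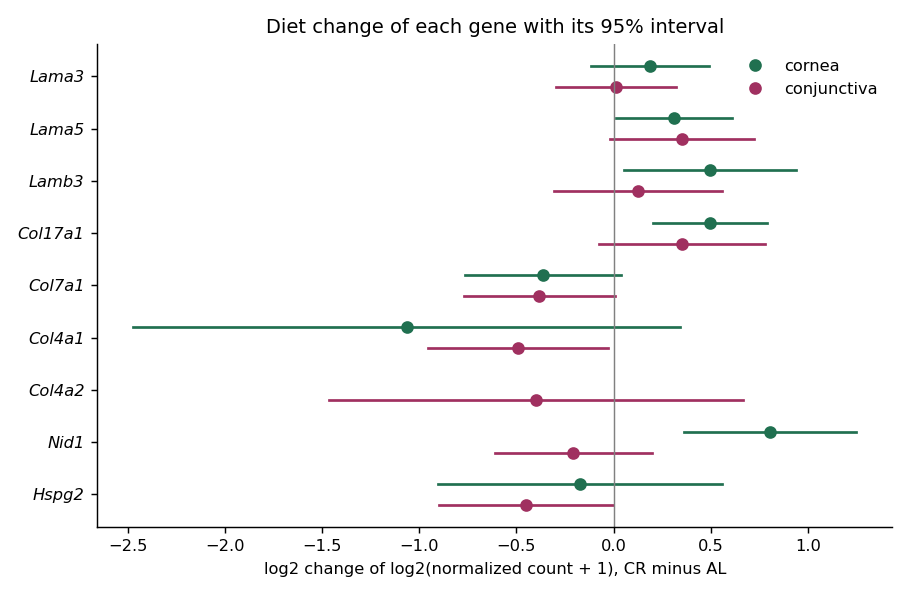
Log2 change of each gene (CR minus AL, on log2 of normalized count plus 1) with its 95% interval from limma, in the cornea (green) and conjunctiva (red); Col4a2 has no cornea value because it was not tested there. The intervals of Lama5, Lamb3, Col17a1 and Nid1 in the cornea lie above 0 and those of Col4a1 and Hspg2 in the conjunctiva below 0 before adjustment over all genes, and none was called after it.

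The diet change was also compared between tissues, with errors and intervals that do not allow for tissues taken from the same mouse. No member passed an adjusted p of 0.05, against 0.0168% of the 11929 genes tested in both tissues. The difference was greatest for *Nid1*, whose change in the conjunctiva was lower than in the cornea by −1.01 ± 0.28 on the log2 scale (95% interval −1.59 to −0.44, unadjusted p = 0.00109, adjusted p = 0.301). For *Lama5* and *Col7a1* the changes were close in both tissues, with differences of 0.04 ± 0.23 and −0.02 ± 0.27, whose 95% intervals ran from −0.42 to 0.50 and from −0.56 to 0.52. For *Col4a1* the interval of the difference, from −0.88 to 2.03, was the widest.

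Within a library, the mean log2 value of the sheet and linker genes *Col4a1*, *Col4a2*, *Nid1* and *Hspg2* was set against that of the junction genes *Lama3*, *Lamb3*, *Col17a1* and *Col7a1*. The sheet mean minus the junction mean was −4.62 to −3.94 on the log2 scale in AL corneas and −5.37 to −4.08 in CR corneas. For conjunctiva libraries the difference was −1.19 to −0.08 in AL and −1.89 to −0.28 in CR. The tissues did not overlap on this measure and the diets overlapped within both. Its mean was lower under CR in each tissue, at −4.79 ± 0.53 against −4.23 ± 0.26 in the cornea (SD, n = 5 each) and −0.99 ± 0.59 (n = 5) against −0.58 ± 0.46 (n = 4) in the conjunctiva. The difference in the cornea, −0.56, was −0.65 without AL 4, −0.73 without CR 1 and −0.83 without both, but −0.41 without CR 3. AL 4 and CR 1 stood with the other diet in the share of genes without a read. The wider differences without them are therefore no check on the diet difference. The difference in the conjunctiva, −0.42, was −0.19 without CR 5 and −0.25 without AL 5, against −0.62 without AL 3. In the cornea the sheet mean includes *Col4a2*, which was too low to be tested there. The lowest values, −5.37 in CR 3 and −5.18 in CR 7, came from libraries with 2 and 0 reads of it. Of the tested genes in that mean, *Nid1* had a positive change (0.81), and *Col4a1* and *Hspg2* had negative ones (−1.07 and −0.17). The differences of sheet and junction means carry no test.

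The members were then related to each other, to the summed markers of 9 cell types and to the share of genes without a read, over the libraries of a tissue, with 126 relations in each. In the conjunctiva 1 relation passed adjustment on Pearson's r. *Col17a1* followed the summed corneal epithelium list, with Pearson r = 0.987 (exact permutation p = 8.27e-06, adjusted p = 0.00104) and Spearman rho = 0.983 (exact permutation p = 4.96e-05, adjusted p = 0.00625) over 9 libraries, and r = 0.984 without the 2 libraries farthest from the median sum. That sum, 94262 to 146004 normalized counts, is made up mostly of *Krt5*, a keratin of basal cells, and *Aldh3a1*, an enzyme, both of which the conjunctiva itself expresses. The AL and CR libraries lay along the same line, from CR 3 at the low end to CR 4 at the high end. Each diet alone has fewer than 6 libraries, so the relation was not computed within diets.

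**Figure D4:**
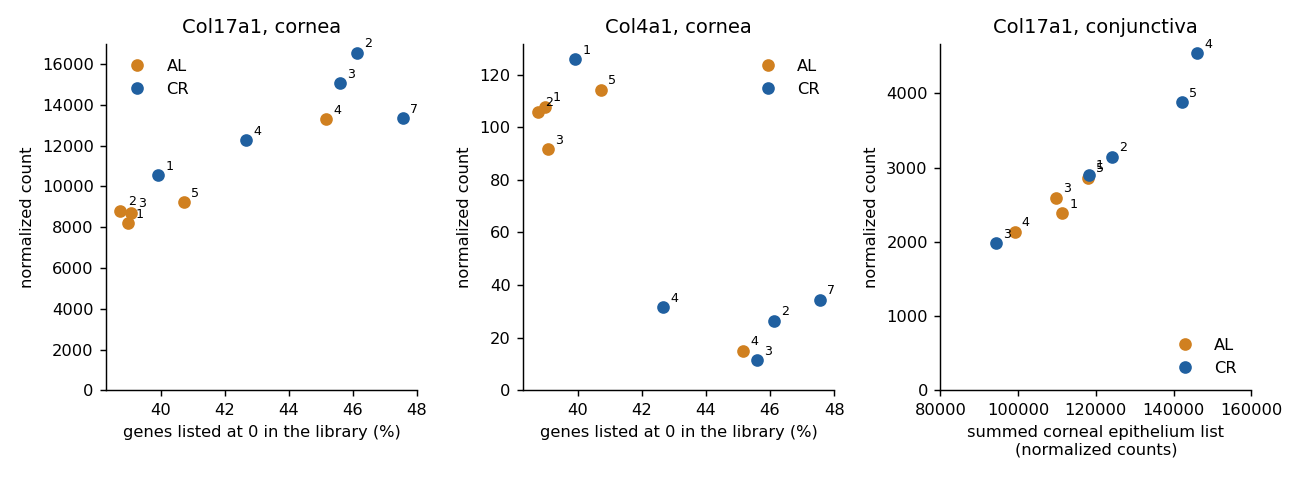
Normalized counts of Col17a1 (left) and Col4a1 (middle) in the 10 cornea libraries against the share of genes without a read (percent), and of Col17a1 (right) in the 9 conjunctiva libraries against the summed corneal epithelium list (normalized counts). Points are single libraries, numbered by replicate and coloured by diet. In the middle panel AL 1, 2, 3 and 5 and CR 1 lie at 91.7 to 126 and the other 5 libraries at 11.4 to 34.4, and in the right panel the points run along a single line (r = 0.987).

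On Spearman's rho 3 relations passed: the same one, *Col4a2* with *Nid1*, and *Lama3* with the summed endothelial list (rho = −0.933, exact permutation p = 0.000750, adjusted p = 0.0315, r = −0.788, exact permutation p = 0.00917, adjusted p = 0.0788, and r = −0.760 without the 2 farthest libraries). *Lama3*, an epithelial laminin chain, was thus lower where the endothelial sum was higher. It was also lower where the lacrimal gland sum was higher (r = −0.855, rho = −0.867, exact permutation p = 0.00379 and 0.00451, adjusted p = 0.0668 and 0.0631, r = −0.942 without the 2 farthest libraries). The fat cell sum stood likewise (r = −0.805, rho = −0.767, exact permutation p = 0.00960 and 0.0214, adjusted p = 0.0788 and 0.1225, r = −0.501 without them). Only 1 of the 6 lacrimal gland markers passed the filter in the conjunctiva, where the lacrimal gland sum was 66.2 to 225 normalized counts. Among the other conjunctival relations, *Col17a1* had r = 0.864 with the share of genes without a read (rho = 0.900, exact permutation p = 0.00276 and 0.00203, adjusted p = 0.0668 and 0.0511, r = 0.817 without the 2 farthest libraries). *Col4a1* and *Hspg2* had r = 0.886 (rho = 0.900, exact permutation p = 0.00143 and 0.00203, adjusted p = 0.0530 and 0.0511, r = 0.774 without the 2 farthest libraries). *Col4a2* and *Nid1* had r = 0.819 (rho = 0.933, exact permutation p = 0.00168 and 0.000750, adjusted p = 0.0530 and 0.0315, r = 0.858 without them). *Col17a1* and *Col7a1* ran in opposite directions, with r = −0.881 (rho = −0.800, exact permutation p = 0.00141 and 0.0138, adjusted p = 0.0530 and 0.114, r = −0.785 without them). *Nid1* followed the summed fibroblast list, at r = 0.869 (rho = 0.783, exact permutation p = 0.00627 and 0.0172, adjusted p = 0.0718 and 0.114, r = 0.821 without them). *Col4a2* had r = 0.884 with the summed endothelial list (rho = 0.867, exact permutation p = 0.00360 and 0.00451, adjusted p = 0.0668 and 0.0631), but 0.493 without the 2 farthest libraries, so that relation rests on them.

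In the cornea 0 of 126 relations passed adjustment. Because the libraries fell into separate levels of *Col4a1*, no pooled correlation value is given for it. *Col17a1* had r = 0.920 with the share of genes without a read (rho = 0.915, permutation p = 0.00086 and 0.0007, adjusted p = 0.0995 and 0.0882, r = 0.953 without the 2 farthest libraries). *Col17a1* had 8186 to 10559.9 normalized counts in the 5 libraries with the smaller share of genes without a read and 12277 to 16565 in the others. *Lama3* and *Lama5* had r = 0.868 over the 10 cornea libraries (rho = 0.806, permutation p = 0.00158 and 0.00688, adjusted p = 0.0995 and 0.289, r = 0.783 without the 2 farthest). With the share of genes without a read as a covariate, the change of *Col17a1* in the cornea was 0.19 in place of 0.50.

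Markers of other cell types were set beside these values. The AL and CR sums of every list overlapped in both tissues, and only the fibroblast list in the conjunctiva and the lacrimal gland list in the cornea held calls. In the conjunctiva, 8 of 8 fibroblast markers had lower means under CR and 3 were called, with a median log2 change of −0.72, and their summed level was 40493 to 60447 normalized counts in AL and 26368 to 51992 in CR. Of all 13929 genes tested there, 7241 had lower and 6688 higher means, and 0.359% were called. Of 10 endothelial markers 8 were lower and 0 called (median −0.26), and their sum was 2078 to 2925 in AL and 1131 to 3548 in CR, the lowest being CR 5. CR 5 was also the lowest conjunctiva library for *Col4a1*, *Col4a2*, *Nid1* and *Hspg2* and for the fibroblast sum and the pericyte and smooth muscle sum. In the cornea the endothelial sum was 59.2 to 206 in AL and 55.3 to 217 in CR, with 2 of 10 markers tested, and the fibroblast sum was 930.3 to 1903 and 440.1 to 2135, with 7 of 8 tested. Fat cell markers stood the other way in the conjunctiva, with 4 of 4 higher means under CR, a median log2 change of 1.97 and 0 called, and their sum was 95.4 to 975 in AL and 273 to 1401 in CR. In the cornea 3 of these 4 were at 0 in every library. The lacrimal gland sum was 10031 in cornea AL 1 and 48.3 to 409.9 in the other 9 cornea libraries, and its secretoglobin gene *Scgb2b24* was called lower under CR, at 6.19 to 8380 in AL and 0 to 2.19 in CR. Cornea CR 7 had the highest conjunctival epithelium sum, 81422 against 39212 to 56878 in the others, and the lowest corneal epithelium sum, 481422 against 571706 to 700996. It was also the lowest CR library for *Lama3*, *Lama5*, *Col7a1*, *Col4a2* and *Nid1*. Of the conjunctival list, only *Muc5ac* and *Tff1* stood apart between tissues. In CR corneas these reached 6.57 and 18.6 normalized counts, against 43.3 and 22.7 in AL corneas. The part of these cells in the members' values was not tested.

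The wider set held 67 genes in 7 lists, the members included. In the cornea 54 were tested, of which 30 had higher and 24 lower means under CR, with a median log2 change of 0.12 against −0.03 over all genes tested. Of all 12278 genes tested there, 46.9% had higher means and 1.22% were called. *Adam9*, a membrane protease that sheds surface proteins, was the single call, at 25.7 to 64.6 normalized counts in AL and 58.0 to 204 in CR (log2 change 1.36 ± 0.33, adjusted p = 0.0445). The AL and CR libraries overlapped. The call was lost when any of AL 1, 2, 3 or 5 or CR 2, 3, 4 or 7 was left out, and it was not made with voom on the recovered reads. *Adam17*, a related sheddase, had 961 to 1246 in AL and 619 to 838 in CR, with an adjusted p of 0.0409 but a fold under 1.5 (−0.50 ± 0.12). *Col18a1*, the collagen XVIII gene, had 5.50 to 17.5 in AL and 29.6 to 41.7 in CR without overlap (1.56 ± 0.50, adjusted p = 0.121). *Dst*, which encodes the hemidesmosome plakin, had 5587 to 6671 and 6381 to 8772 (0.32 ± 0.11, adjusted p = 0.137). Of the 7 hemidesmosome and anchoring fibril genes 5 had higher means in the cornea, with a median of 0.25, and 0 were called.

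In the conjunctiva 64 of the 67 were tested, of which 48 had lower and 16 higher means under CR, with a median of −0.23 against −0.02 over all genes. Of all 13929 genes tested there, 48.0% had higher means and 0.359% were called. *Serpinh1*, the collagen chaperone HSP47, fell from 778 to 1137 normalized counts in AL to 331 to 619 in CR (−1.03 ± 0.18, adjusted p = 0.0149), and was the single call. Leaving out AL 1, AL 5, CR 1 or CR 2 ended this call. The remaining genes with the smallest p did not pass: *Mmp9*, a protease that cuts collagen IV, had 325 to 595 in AL and 142 to 301 in CR (−1.12 ± 0.25, adjusted p = 0.0767), and *Loxl2*, a collagen crosslinking oxidase, 315 to 398 and 158 to 256 (−0.76 ± 0.19, adjusted p = 0.104). *Pxdn*, the peroxidase that crosslinks collagen IV, had 85.3 to 183 and 32.1 to 102 (−1.22 ± 0.35, adjusted p = 0.204).

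By list, the 6 collagen IV chains all had lower means in the conjunctiva (median −0.49), as did the 8 crosslinking and assembly genes (median −0.51) and the 8 proteases (median −0.51). Over all genes tested, 48.0% had higher means in the conjunctiva and 46.9% in the cornea. The 10 laminin chains tested were split, 5 higher and 5 lower (median 0.01), and of 9 matrix receptors 5 were higher (median 0.09). In the cornea the laminin chains had a median of −0.01 over 9 tested, the 4 collagen IV chains tested −0.55, the 15 linkers and proteoglycans −0.09, the 8 matrix receptors 0.29, the 5 crosslinking genes 0.14 and the 6 proteases 0.09. In the conjunctiva the 16 linkers and proteoglycans had a median of −0.19, with 14 lower, and the 7 hemidesmosome and anchoring fibril genes a median of 0.10.

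**Figure D5:**
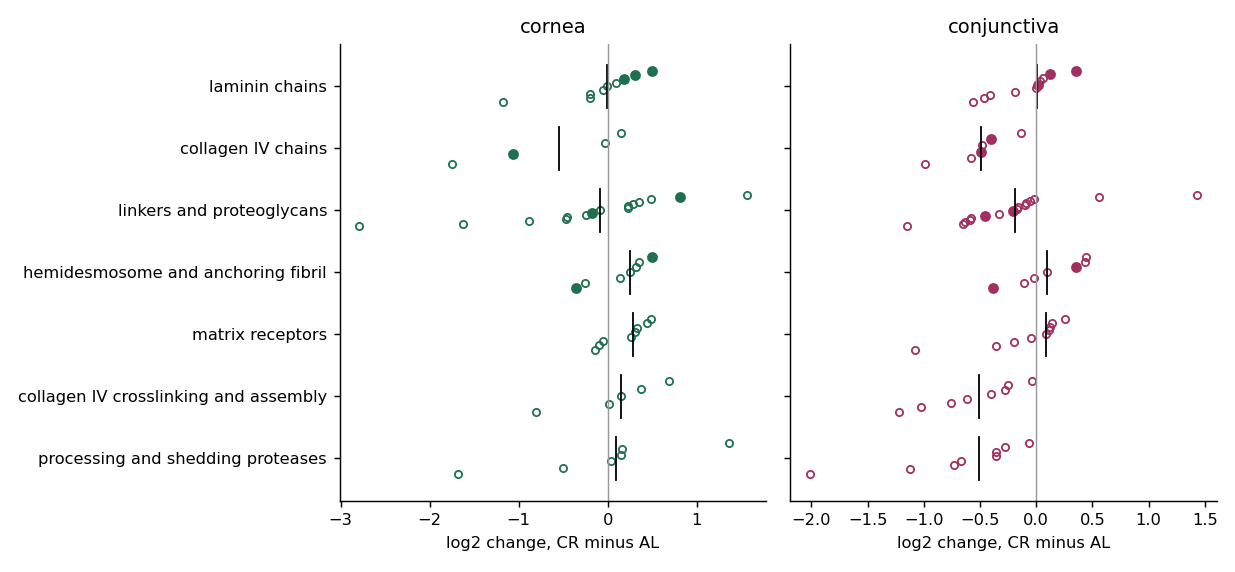
Log2 change (CR minus AL) of each tested gene of the 7 basement membrane lists in the cornea (left) and conjunctiva (right); filled points are the members, open points the other list genes, and black bars list medians. In the conjunctiva the collagen IV, crosslinking and protease genes all lie below 0 (medians −0.49, −0.51 and −0.51), and in the cornea the same lists lie on both sides of 0.

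The genes whose levels most resembled *Lamb3* and *Col4a1* were found by Pearson r over the libraries of a tissue, among all genes tested, as a description. For *Lamb3* they were *Sparc* (r = 0.93), which encodes a collagen-binding matrix protein, *Insig2* (0.93) and *Gm14403* (0.92) over the 10 cornea libraries, and *Dolk*, *A430078I02Rik* and *Gpr137b* (each 0.96) over the 9 conjunctiva libraries. For *Col4a1* in the cornea they included the cytochrome c oxidase gene *Cox6c* and *Fndc5*, with no value given because of the separate levels. In the conjunctiva they were *Lix1l* (0.98), *Plpp1* (0.97) and *Tll1* (0.97). *Tll1* encodes a protease that processes matrix proteins and is in the protease list. *Hspg2* ranked 117 in likeness to *Col4a1* in the conjunctiva and *Nid1* ranked 99 in likeness to *Lamb3* in the cornea.

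Positions bear on the counts of some members. On GRCm38 (GENCODE M21), *Col4a1* lies at chr8:11198423-11312826 on the minus strand and *Col4a2* at chr8:11312805-11449287 on the plus strand, so their annotated ends overlap by 22 bases. *Lamb3*, at chr1:193207699-193343878, spans *Hsd11b1* (42442 shared bases) and *G0s2* (1057), both protein-coding genes on the other strand. Whether counting used strand is not stated, so reads of overlapping genes may not have been told apart. The other members overlapped only noncoding, pseudogene or microRNA entries or none: *Lama3* at chr18:12333819-12583013, *Lama5* at chr2:180176373-180225859, *Col17a1* at chr19:47646344-47692094, *Col7a1* at chr9:108953586-108984875, *Nid1* at chr13:13437551-13512269 and *Hspg2* at chr4:137468769-137570630. The study's methods name the build mm10, which is GRCm38, and the labels name GRCm39, so these positions hold for the annotation used here and not necessarily for that of the counts.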

How the data were processed

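RNA of corneal epithelium and conjunctiva was sequenced as single reads in 19 libraries. The authors trimmed reads with cutadapt, aligned them with STAR to mm10 (the labels' processing notes name GRCm39), counted them per gene with HTSeq and scaled them with DESeq2 size factors; versions are not given in the sources used here. The deposited values are log2 of the normalized count plus 1, and each tissue was scaled in its own table. Dividing out the size factor gave whole reads for 100% of values (within 0.01), and 0 columns were unmapped. Groups followed the labels, although a legend of the study swaps the conjunctiva group sizes. Diets were compared in each tissue with limma 3.58.1 (statmod 1.5.0, R 4.3.3), with an intensity trend and robust moderation, on the log2 values as deposited (pseudocount 1), restricted to genes averaging 10 normalized counts or more, with Benjamini-Hochberg adjustment over all of them. Genes were called at an adjusted p under 0.05 and a fold over 1.5. Fold changes on this scale understate those of low genes. Changes in both tissues were compared by their difference over its standard error (Satterthwaite). This error treats the tissues as independent, although several tissues were taken from each mouse. Correlations used every permutation (9 libraries) or 100000 (10 libraries), two-sided. The 95% intervals of changes come from limma and cover the spread between libraries, whereas the floor of 3 reads covers counting error only and was 2.27 to 3.37 normalized counts. The procedure was tested on simulated data, whose set changes were larger than most of those fitted to the members. That test does not show how often smaller changes are called. Named genes were all 9 members, list genes called in either tissue or among the 4 smallest p of a tissue, and the 3 genes most like *Lamb3* and *Col4a1*, of which 1 is not reported here. The members and lists were chosen with earlier results of these data known. Other settings were a pseudocount of 0.5 or 10, no filter, a minimum mean of 50, quantile and total read scaling, array weights, voom on recovered reads, a replicate block, the share of genes without a read as a covariate, no fold threshold and leaving out each library, and a difference per shared title and leaving libraries out of the sheet minus junction means were added after seeing the data. Promoters came from RefSeq (GRCm38.p6).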

Additional observations from a re-analysis of the deposited data

Results flagged for a closer look

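Within the 36 groups of a gene, a tissue and a diet, 5 held a library far from the others (gap to the nearest library over the range, Dixon's 95% limit). Chance alone flags about 1 in 20 groups. Of the 5, 4 were in the cornea and 3 of those were in AL 4 or CR 1, the libraries whose share of genes without a read stood with the other diet. *Col17a1* had 13286 normalized counts in cornea AL 4 against 9231 in the nearest AL library. *Col4a1* had 15.03 in cornea AL 4 against 91.7 in the nearest AL library, and 126 in cornea CR 1 against 34.4 in the nearest CR library. *Hspg2* had 36.0 in cornea AL 5 against 68.8 in the nearest. In the conjunctiva, *Col7a1* had 275 in AL 5 against 336 in the nearest. The part of the share of genes without a read in these values was not tested within groups.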

How the results depend on the processing

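The number of members called in the cornea, 0, became 3 with array weights (*Col17a1*, *Col4a1* and *Nid1*), ran from 0 to 2 when single libraries were left out, and stayed 0 under the other alternatives, including the replicate block. It was 2 without AL 4 (*Col17a1* and *Nid1*) and 1 without CR 7 (*Nid1*). In the conjunctiva it was 0 under all 20 alternatives, and the number of members whose change differed between tissues was 0 under all 30. List genes called higher in the cornea, 1 (*Adam9*), became 3 with array weights (*Adam9*, *Col17a1* and *Nid1*), 0 with voom, without a filter, with the replicate block and with the share of genes without a read as a covariate, and 0 to 3 when single libraries were left out (3 without AL 4: *Adam9*, *Col17a1* and *Nid1*). List genes called lower there, 0, became 2 with array weights (*Col4a1* and *Nid2*), 1 with that covariate (*Fras1*), and 0 to 1 when libraries were left out (*Nid2* without AL 4). In the conjunctiva the number lower, 1 (*Serpinh1*), became 3 with array weights (*Loxl2* and *Mmp9* as well), 0 with the replicate block and 0 to 2 when libraries were left out (*Mmp9* as well without AL 3 or CR 3). Over all genes, calls went from 150 to 705 with array weights, 99 with voom and 103 without a filter in the cornea, and from 50 to 149 with array weights and 48 with voom in the conjunctiva. Leaving out 1 library gave 53 (without AL 5) to 536 (without AL 4) in the cornea, with 309 without CR 1 and 58 to 67 without AL 1, 2 or 3 or CR 2 or 3, and 26 (without CR 2) to 127 (without CR 3) in the conjunctiva, with 76 without CR 5 and 27 to 32 without AL 1, 4 or 5 or CR 1. Total read scaling moved the median of all genes in the conjunctiva to −0.10 from −0.02.

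Directions turned only where changes were small against their error, apart from *Col4a1*. With the share of genes without a read as a covariate, the changes of *Col4a1* and *Hspg2* in the cornea were 0.25 and 0.041, that of *Lama3* in the conjunctiva −0.054, and the differences between tissues of *Col7a1* and *Col4a1* 0.061 and −0.51. With quantile normalization the *Lama3* change in the conjunctiva was −0.015 and the *Col7a1* difference 0.024. With total read scaling the *Lama3* change was −0.076 and the *Lama5* difference −0.060, and with the replicate block that difference was −0.17. When single libraries were left out, ranges that crossed 0 were −0.38 to 0.12 for *Hspg2* in the cornea, −0.049 to 0.096 for *Lama3* and −0.095 to 0.31 for *Lamb3* in the conjunctiva, and −0.093 to 0.14 (*Lama5*), −0.27 to 0.024 (*Col17a1*) and −0.22 to 0.086 (*Col7a1*) for differences. The cause was not tested.

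The labels do not state that same-numbered AL and CR libraries share more than a number. The correlation of the deviations of such pairs ran from −0.297 to 0.288 (cornea) and −0.062 to 0.053 (conjunctiva). The replicate block moved the calls over all genes from 150 to 46 and from 50 to 10. Few reads limit *Col4a2* in the cornea (0 to 21 a library).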
